A study of Arabidopsis thaliana with 17 samples.

Results

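In roots of Arabidopsis thaliana 10 iron genes were followed, 9 genes of the root's iron uptake system and FRD3, which serves iron transport in the xylem. The members, 10 of the 37336 features counted, were FIT (AT2G28160), bHLH38 (AT3G56970), bHLH39 (AT3G56980), bHLH100 (AT2G41240), bHLH101 (AT5G04150), IRT1 (AT4G19690), FRO2 (AT1G01580), F6'H1 (AT3G13610), ABCG37 (AT3G53480) and FRD3 (AT3G08040). They were named by locus for their known iron roles, and the set was selected on the measured fold changes between bamboo and the wild type Col-0-b, among which FRD3 stood out. Their levels and fold changes in these libraries are therefore a description and carry no test of their own.

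The study concerns the NF-Y transcription factor subunit NF-YA2 and the long non-coding RNA BAMBOO. Whole roots of 14-day-old plants, mock-treated and grown on solid MS medium with sucrose, gave the RNA-seq libraries described here. Of the 17 samples, 8 are used: bamboo (n = 2, numbered 2 and 3), the wild type Col-0-b (n = 3) and a further wild-type set, Col-0 (n = 3), which came in a table of its own. The submitters call bamboo a mutant and mark its values KD, which may stand for knockdown. The sources used here do not otherwise say how BAMBOO is changed in it. No iron treatment is named for any group, and nothing says whether replicates came from separate plates or pools, so the spread between libraries may be technical.

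Plants such as Arabidopsis acidify the rhizosphere, reduce ferric iron at the root surface and import the ferrous ion. The transcription factor FIT acts with the closely related subgroup Ib proteins bHLH38, bHLH39, bHLH100 and bHLH101 to switch on this system when iron is short. Coumarins secreted by the root help to mobilise iron from poorly soluble forms, and citrate then carries iron through the xylem to the shoot. In the frd3 mutant, which lacks the citrate exporter, uptake genes stay on even when iron is supplied.

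Depth ran from 16963843 to 24333119 reads per library for bamboo and Col-0-b and from 13637179 to 21206367 for Col-0. Root markers were present in all groups. The endodermal genes SCR, CASP1 and MYB36 summed to 4640 to 4974 normalized counts in Col-0-b and to 5488 and 5091 in bamboo. This sum was thus higher in bamboo without overlap, as were 17.1% of all features tested. CASP1 contributed the most counts to it. MYB36 had a log2 fold change of 0.30 (limma adjusted p = 0.182) and CASP1 0.21 (adjusted p = 0.235). SCR went the other way, at -0.13 (adjusted p = 0.558), with overlap. The epidermal genes COBL9, RHD6, EXPA7, PRP3 and GL2 summed to 2998 to 3604 in Col-0-b and to 3759 and 3213 in bamboo, with overlap. RHD6 had a log2 fold change of -0.38 (limma adjusted p = 0.151) and COBL9 -0.14. The other epidermal genes had 0.26 (PRP3), 0.03 (EXPA7) and 0.03 (GL2). Markers of shoot tissue (CAB1, RBCS1A, LHCB2.1 and LHCB3) summed to 1655 in Col-0-b replicate 1 and to 604 to 962 in the other 4 libraries of that table. Over all 20274 features that passed the filter on low values, 27 were called between bamboo and Col-0-b, which is 0.133% (limma, Benjamini-Hochberg adjusted p under 0.05; 0.0691% higher and 0.0641% lower). All 10 members passed that filter, and 1 of them, FRD3, was among the 27. Since the choice of members used this contrast, nothing is read from that count.

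FRD3, a transporter of the MATE family that releases citrate into the xylem, was lower in bamboo. Its normalized counts (reads divided by the authors' size factor) were 1592, 1691 and 1780 in Col-0-b replicates 1, 2 and 3, and 1232 and 1214 in bamboo replicates 2 and 3. Both bamboo libraries lay below all Col-0-b libraries, and they differed from each other by little. The means were 1688 ± 93.8 in Col-0-b (SD, n = 3) and 1223 ± 12.7 in bamboo (SD, n = 2), a log2 fold change of -0.46 (SE 0.07, 95% interval -0.63 to -0.30), or a change of -27.4%. FRD3 was the 1 member whose bamboo libraries all lay on one side of Col-0-b, where 34.6% of all features tested showed such a split. Leaving out any Col-0-b library ended its call, with log2 fold changes of -0.50, -0.46 and -0.42 without replicates 1, 2 and 3.

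Of 5 markers of the stele, the central cylinder in which FRD3 is known to act, 1 was called, SUC2, as lower. Over all features tested, 0.0641% were called as lower. SUC2, the sucrose carrier of phloem loading, fell from 2011 ± 140 to 1391 ± 46.4 normalized counts (log2 fold change -0.53, limma adjusted p = 0.023). PHO1, an exporter that loads xylem sap with phosphate, had a log2 fold change of -0.36 (adjusted p = 0.0904) and SHR, a stele-expressed regulator, had -0.19 (adjusted p = 0.336). AHP6 and WOL, the other stele markers, had values of -0.00 and 0.03. The 5 stele markers summed to 14507 to 16528 normalized counts in Col-0-b and to 12010 and 12681 in bamboo, so the groups did not overlap. PHO1 contributed the most counts to these sums. Of all features tested, 17.5% were lower in bamboo without overlap. The part of stele content in the FRD3 difference was not tested, and in whole roots fewer cells of a type and less RNA per cell cannot be told apart.

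**Figure D1:**
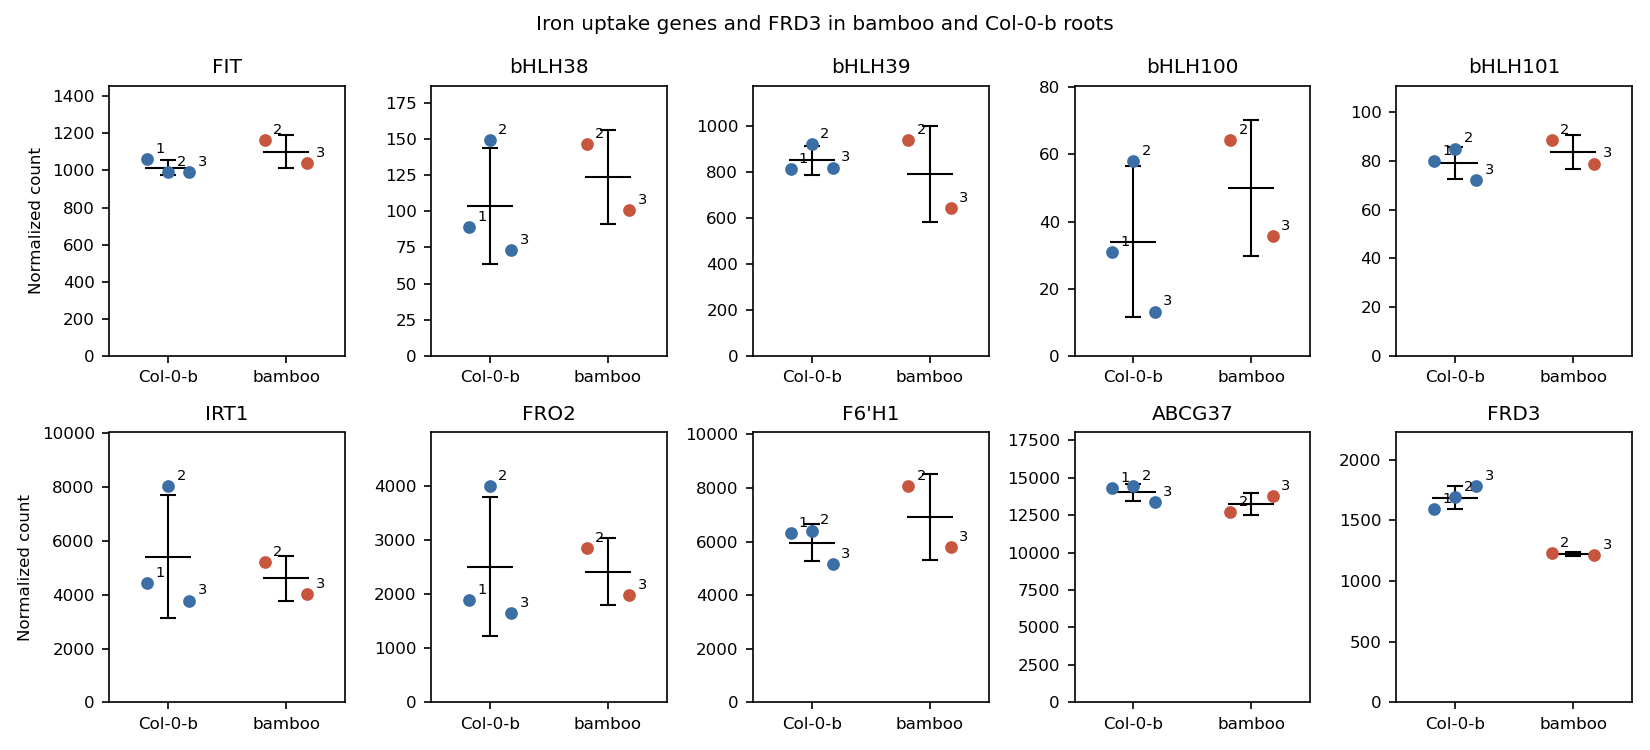
Normalized counts of the 10 members in each library (points, with the replicate number beside them) of Col-0-b (blue) and bamboo (red). Horizontal bars are group means and whiskers 1 SD; each panel starts at 0. FRD3 is the panel in which the groups separate, while IRT1 and FRO2 are highest in Col-0-b replicate 2.

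FIT, the master regulator of the uptake system, was nearly level. It had 1061, 991 and 990 normalized counts in Col-0-b replicates 1 to 3, and 1164 and 1038 in bamboo replicates 2 and 3. Bamboo replicate 2 lay above the wild-type range and bamboo replicate 3 inside it. The log2 fold change was 0.12 (SE 0.08, 95% interval -0.06 to 0.29).

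The 4 subgroup Ib partners of FIT differed more between libraries than between genotypes. bHLH38 had 88.9, 149 and 73.0 normalized counts in Col-0-b replicates 1 to 3, and 146 and 101 in bamboo (log2 fold change 0.29, SE 0.30). bHLH39, its neighbour on the chromosome, had 811, 922 and 818 in Col-0-b, and 939 and 642 in bamboo (-0.13, SE 0.15). In both genes replicate 2 stood highest in each genotype. bHLH100 had 31.0, 57.9 and 13.2 normalized counts in Col-0-b, and 64.3 and 35.6 in bamboo (0.71, SE 0.59, 95% interval -0.70 to 2.12). bHLH101 had 80.0, 85.0 and 72.0 in Col-0-b, and 88.5 and 78.8 in bamboo (0.08, SE 0.17). Genotypes overlapped for all 4 genes, and the interval for bHLH100 spans everything from a lower level to one several times higher.

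IRT1, the ferrous iron importer of the root epidermis, showed its widest difference inside the wild type. It had 4427, 8029 and 3785 normalized counts in Col-0-b replicates 1 to 3, and 5207 and 4016 in bamboo replicates 2 and 3. Col-0-b replicate 2 lay 1.96-fold above the mean of the other two wild-type libraries, and both bamboo libraries fell within the wild-type range. FRO2, the ferric chelate reductase that supplies IRT1 with ferrous iron, had 1890, 3988 and 1643 in Col-0-b, and 2851 and 1976 in bamboo. Its Col-0-b replicate 2 was 2.26-fold above the mean of the others. The log2 fold change between genotypes was -0.16 (SE 0.41, 95% interval -1.37 to 1.04) for IRT1 and 0.04 (SE 0.52, 95% interval -1.50 to 1.57) for FRO2. In this fit the intervals include a 2-fold difference between genotypes in either direction. Much of their width came with Col-0-b replicate 2. Without it the log2 fold change was 0.16 (SE 0.13) for IRT1 and 0.43 (SE 0.17) for FRO2.

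Both coumarin genes overlapped between the genotypes. F6'H1, the dioxygenase that makes the scopoletin precursor, had 6318, 6409 and 5169 normalized counts in Col-0-b replicates 1 to 3, and 8059 and 5786 in bamboo. Bamboo replicate 2 was above, and bamboo replicate 3 within, the wild-type range (log2 fold change 0.20, SE 0.15). The fold change was -0.04 without bamboo replicate 2 and 0.44 without bamboo replicate 3. ABCG37, also called PDR9, exports phenolic compounds such as coumarins and had 14304, 14409 and 13350 in Col-0-b, and 12695 and 13747 in bamboo (-0.09, SE 0.08). Its 95% interval of -0.25 to 0.08 is narrower than that of IRT1 or FRO2.

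The members shared an order of libraries within each genotype. Col-0-b replicate 2 was the highest of its group for 8 of 10 members, against 31.8% of all features tested, the exceptions being FIT and FRD3. Bamboo replicate 2 was above bamboo replicate 3 for 9 of 10, against 50.5% of features, with ABCG37 the exception. Both orders held for 7 members, against 18.9% of features. The genes measured here share their libraries and are not independent of each other.

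A 2-fold spread among the wild-type libraries was rare. Of the 10137 features with a mean above the median of tested features (391 normalized counts), 11 (0.109%) differed at least 2-fold between the highest and the lowest Col-0-b library. IRT1 (2.12-fold) and FRO2 (2.43-fold) were 2 of these, out of 7 members at that level. CYP82C4, a cytochrome P450 of coumarin modification, was another, at 2.40-fold. Replicate 2 was the highest library in 7 of the 11. The other 4 of those 7, named after their values were seen, were AT3G41768, ATMG00020, ATMG00030 and ATMG01390. AT3G41768 is an rRNA in the gene table and had 39774, 113648 and 33595 normalized counts in Col-0-b replicates 1 to 3, and 14865 and 40556 in bamboo replicates 2 and 3. IRT1, with its libraries listed likewise, had 4427, 8029 and 3785 normalized counts in Col-0-b, and 5207 and 4016 in bamboo. In bamboo replicate 2 was thus the higher for IRT1 and the lower for AT3G41768. The part of rRNA content in the spread of IRT1 was not tested. The shoot markers were highest in Col-0-b replicate 1 (1655 summed normalized counts, against 667 in replicate 2), and their part in this spread was not tested either.

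**Figure D2:**
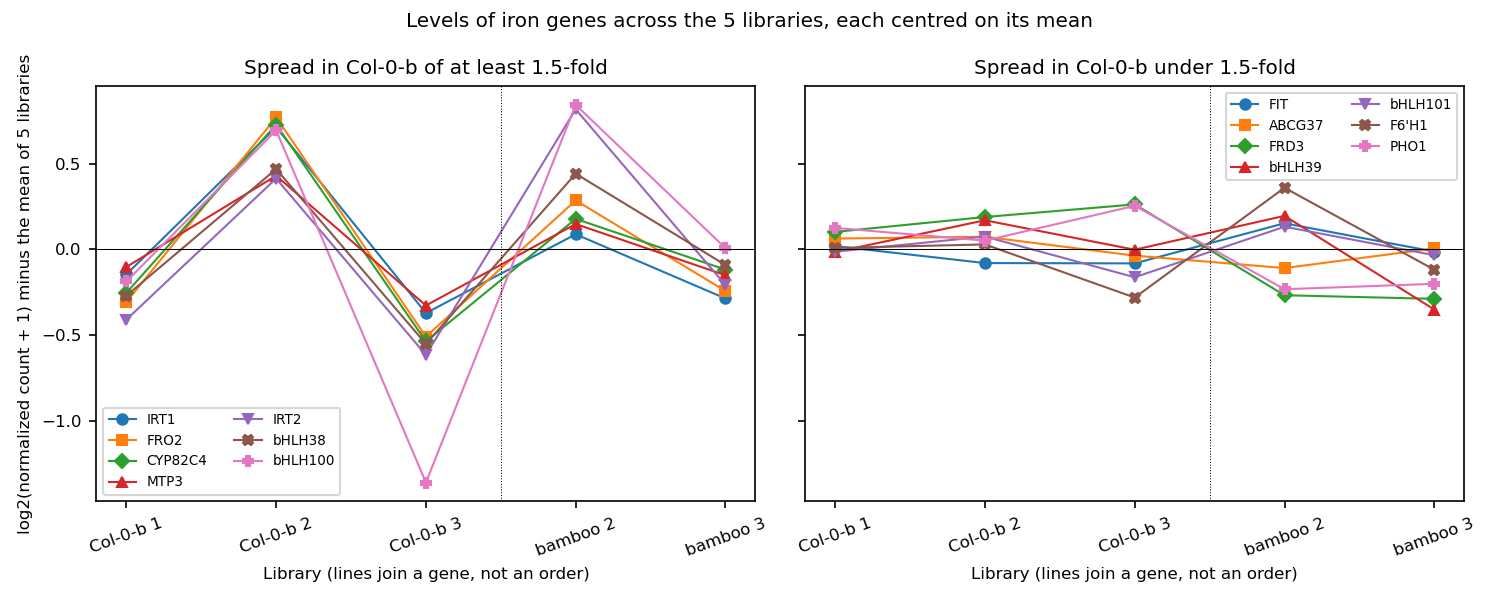
Levels in the 5 libraries of the bamboo table, as log2(normalized count + 1) minus each gene's mean; lines join the values of a gene and imply no order. Left, genes that spread at least 1.5-fold in Col-0-b, which peak in Col-0-b replicate 2 or, for IRT2 and bHLH100, in bamboo replicate 2; right, genes that spread less, with FRD3 and PHO1 low in both bamboo libraries.

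Genes with the most similar pattern were sought by the root mean square distance between centred log2 values over the 5 libraries. Only the 10136 other features with a mean above the median of tested features were ranked, which left out bHLH38, bHLH100 and bHLH101. Nearest to IRT1 among them were CYP82C4 (distance 0.12), FRO2 (0.13) and MTP3 (0.15). MTP3, a vacuolar zinc transporter of the iron deficiency response, is listed as MTPA2 in the gene table. CYP82C4 had 2234, 4412 and 1835 normalized counts in Col-0-b replicates 1 to 3, and 3013 and 2454 in bamboo. MTP3 had 1217, 1761 and 1041 in Col-0-b, and 1448 and 1177 in bamboo. All 3 genes carry the peak in Col-0-b replicate 2 and the smaller one in bamboo replicate 2 that IRT1 has. NAS1, which makes the metal chelator nicotianamine, ranked 41 and bHLH39 ranked 117, whereas F6'H1 ranked 796 and FIT 5347.

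FRD3 and FIT had other neighbours. Those nearest to FRD3 were AT5G09760 (distance 0.03), AT2G17630 (0.04), the phosphoserine aminotransferase PSAT2, and AT2G34190 (0.05), and PHO1 ranked 28. AT2G17630 had 996, 1056 and 1129 normalized counts in Col-0-b, and 758 and 802 in bamboo. Among the other members that were ranked, the nearest was ABCG37, at rank 3277. Nearest to FIT were AT1G19000, HIR1 and SCL8, each at a distance of 0.01, and the ninth was bHLH104, a regulator upstream of the subgroup Ib genes. FIT varied so little that many level genes lie this close to it.

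Other genes of iron homeostasis were taken from 3 lists of 58 genes in all, of which 52 passed the filter on low values. None was called between bamboo and Col-0-b by limma, and edgeR also called 0, while DESeq2 called 1 as higher and 3 as lower and gave 4 genes no adjusted p. Over all features edgeR called 0.138% and DESeq2 1.49%. At an unadjusted p under 0.05 limma gave 10 of 52 (3 higher, 7 lower), where 16.8% of all features passed. On the same threshold edgeR gave 10, against 16.9% of features, and DESeq2 gave 9, against 11.4%. The median log2 fold change was -0.01, against -0.00 over all features tested and 0.06 over the 10 members. The 6 genes left out had at most 8.11 normalized counts in any library.

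Among regulators, 16 of 18 genes were tested, with a median log2 fold change of 0.06. NAI1 (bHLH20), which belongs to a group of bHLH proteins that bind FIT, had a value of 0.33 (limma adjusted p = 0.104). BTS, a ubiquitin ligase that restrains the iron deficiency response, had -0.22 (adjusted p = 0.188), and bHLH115, which activates it, had 0.17 (adjusted p = 0.295). These 2 were named after their values were seen. Others had -0.20 (bHLH34), -0.13 (PYE), 0.04 (bHLH121), 0.11 (bHLH104) and 0.16 (ILR3). Of the 16 tested, 10 had positive and 6 negative values. The largest differences, 0.97 for AT2G22750 and 0.71 for AT2G22760, belonged to genes with means of 15.1 and 18.3 normalized counts in Col-0-b (adjusted p = 0.318 and 0.341), followed by -0.40 for AT1G47395 (adjusted p = 0.505).

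In the uptake and coumarin list all 19 genes were tested, and the median was 0.01. AT3G12900 had the largest value, 0.86 (adjusted p = 0.712), with 97.9, 483 and 150 normalized counts in Col-0-b replicates 1 to 3, and 534 and 230 in bamboo. As for IRT1, replicate 2 was the highest wild-type library. FRO5, a reductase of the FRO family, had -0.57 (adjusted p = 0.163), IRT2, the gene beside IRT1, 0.51 (adjusted p = 0.592) and AT1G28680 0.48 (adjusted p = 0.197). FRO5 had 1488, 1585 and 1699 normalized counts in Col-0-b, and 1310 and 873 in bamboo, so its groups did not overlap. It lies beside its paralogue FRO4, and reads of the pair may be split by the counting.

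Among genes of iron movement and storage 17 of 21 were tested, with a median of -0.15. The vacuolar iron transporter-like gene VTL1 had -0.52 (adjusted p = 0.0837) and OPT3, a transporter of the phloem that passes shoot iron status to the root, had -0.49 (adjusted p = 0.127). OPT3 had 2253, 2212 and 2116 normalized counts in Col-0-b, and 1846 and 1312 in bamboo, the lower one being replicate 3. VTL2 had -0.38 (adjusted p = 0.215). The ferritin FER1, which stores iron in plastids, had 0.37 (adjusted p = 0.456), with 2395, 2079 and 2725 normalized counts in Col-0-b, and 2435 and 3911 in bamboo. Its bamboo replicate 3 was the high library, the one in which IRT1, FRO2 and OPT3 were the lower of the bamboo pair.

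**Figure D3:**
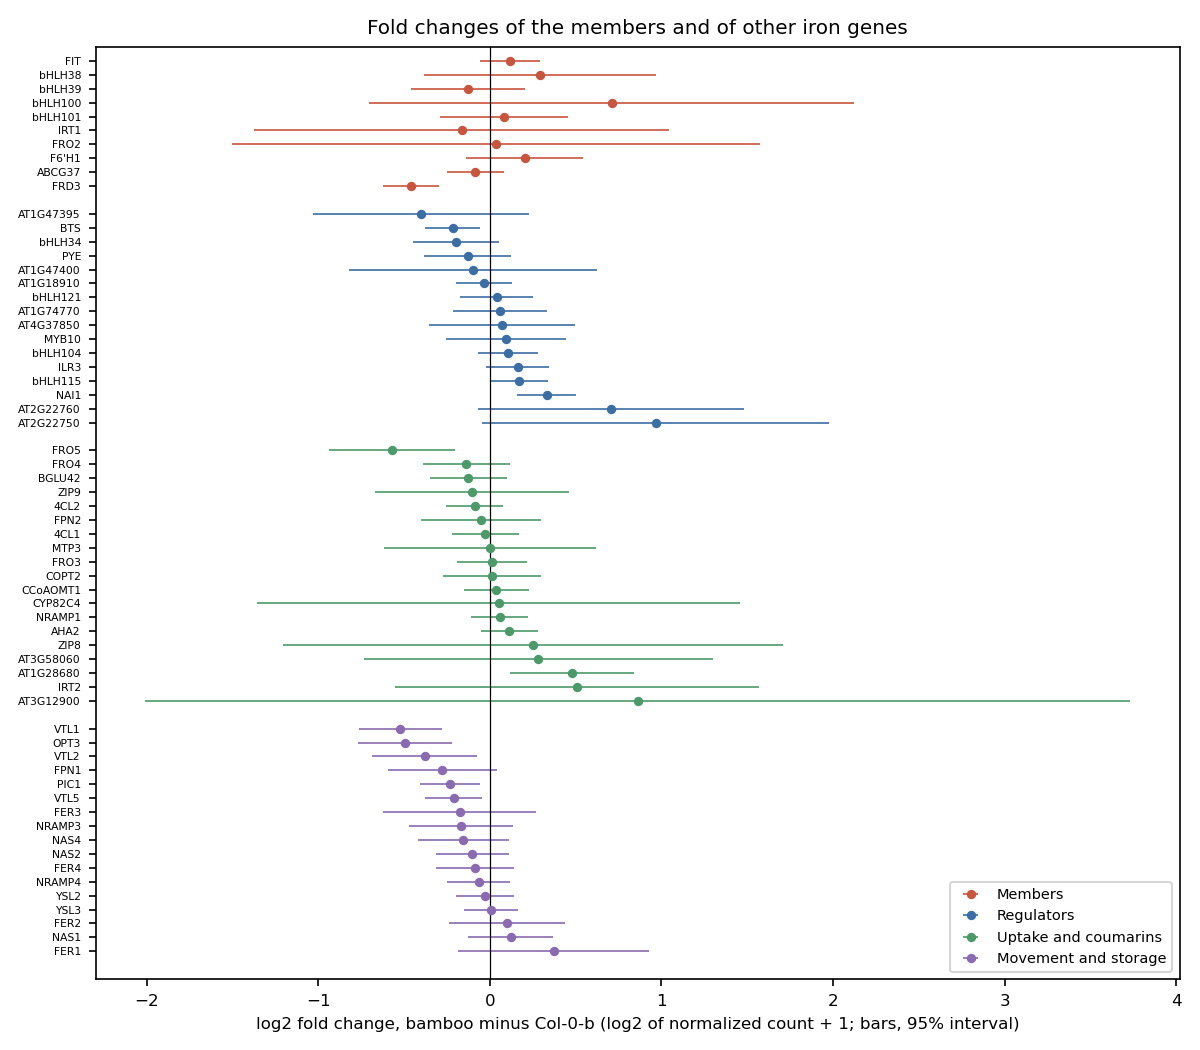
Log2 fold changes (bamboo minus Col-0-b, on log2 of the normalized count + 1) with 95% intervals for the 10 members (red, by role) and 52 tested genes of the other iron lists (sorted within each list). FRD3 lies at -0.46; the set was selected on these fold changes, so its interval is no test. Of the 52 other genes, 10 have intervals clear of 0, against 16.8% of all features tested. IRT1, FRO2 and CYP82C4 are among the genes with intervals wider than 2 log2 units.

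The wild-type sets gave a further view of the same genes. Levels here are CPM (read counts scaled to library size), Col-0 was processed in a table of its own, and no test was made across the tables. The set, its table and any difference in growth or sequencing cannot be told apart. The median log2 ratio of Col-0-b to Col-0 over all features tested was -0.01. Libraries of the wild-type sets did not overlap for 52.9% of features.

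FIT, IRT1 and FRO2 overlapped between the sets. FIT had 37.0, 47.6 and 52.2 CPM in Col-0 replicates 1 to 3, and 51.2, 47.4 and 47.7 in Col-0-b. IRT1 had 371, 400 and 259 CPM in Col-0, and 214, 384 and 183 in Col-0-b, so that Col-0-b replicate 2 sat among the Col-0 libraries. FRO2 had 206, 160 and 112 CPM in Col-0, and 91.2, 191 and 79.2 in Col-0-b, with the same library inside the Col-0 range.

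Of the 4 subgroup Ib genes, bHLH38 and bHLH39 did not overlap between the wild-type sets. bHLH39 had 3.77, 3.35 and 3.37 CPM in Col-0, and 39.1, 44.1 and 39.5 in Col-0-b, means that differ 11.7-fold. Its bamboo libraries, at 44.3 and 31.2 CPM, were near Col-0-b and far from Col-0. bHLH38 had 2.63, 0.566 and 0.88 CPM in Col-0 (55, 12 and 12 reads), and 4.29, 7.13 and 3.52 in Col-0-b, a ratio of means of 3.67. With 1 library left out, this ratio ran from 2.84 (without Col-0 replicate 2) to 6.89 (without Col-0 replicate 1). bHLH100, at 0.477, 1.18 and 0.147 CPM in Col-0 and 1.49, 2.77 and 0.636 in Col-0-b, overlapped, as did bHLH101, at 1.77, 1.74 and 6.82 in Col-0 and 3.86, 4.07 and 3.47 in Col-0-b.

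FRD3 was also lower in Col-0 than in Col-0-b. It had 32.5, 25.1 and 24.0 CPM in Col-0, against 76.8, 80.9 and 85.8 in Col-0-b, and 58.1 and 58.9 in bamboo. The bamboo libraries therefore lay between the wild types, and the distance between the wild types (2.98-fold) exceeded that between bamboo and either one. F6'H1 had 170, 170 and 185 CPM in Col-0, and 305, 307 and 249 in Col-0-b (1.64-fold). ABCG37 had 545, 553 and 582 CPM in Col-0, and 690, 689 and 644 in Col-0-b (1.20-fold). In all, 3 of 10 members (bHLH38, bHLH39 and FRD3) were at least 2-fold higher in Col-0-b without overlap, against 5.03% of features, and 0 were 2-fold lower, against 4.27%.

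**Figure D4:**
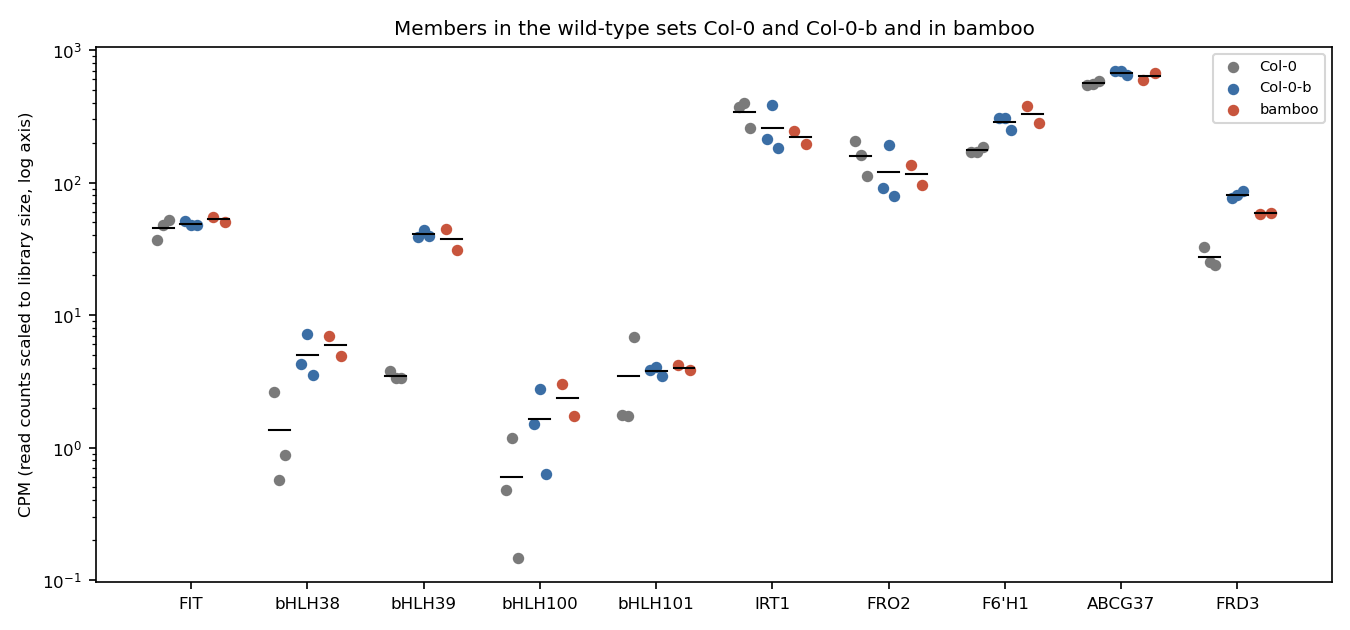
CPM (log axis) of the 10 members in each library of Col-0 (grey), Col-0-b (blue) and bamboo (red), with short lines at group means. bHLH38, bHLH39, F6'H1, ABCG37 and FRD3 separate Col-0 from the other groups, where the wild-type sets do not overlap for 52.9% of all features tested. FRD3 in bamboo lies between the wild types, and FIT overlaps in Col-0 and Col-0-b.

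Reads of 3 members may be shared with a neighbour. In the gene table bHLH38 overlaps PIP5K4, bHLH101 overlaps GLU1 and F6'H1 overlaps PUT4, and the sources used here do not give the strand setting of the counting. Those neighbours had means of 172 (PIP5K4), 95.4 (GLU1) and 213 (PUT4) normalized counts in Col-0-b, with log2 fold changes of -0.10, -0.34 and -0.23 (limma adjusted p = 0.776, 0.429 and 0.432). F6'H1 had a mean of 5966 in Col-0-b, far above PUT4, whereas bHLH38 (104 in Col-0-b) and bHLH101 (79.0) had means no higher than those of the overlapping genes. FRD3 overlaps no gene in that table. The genes on either side of FRD3, AT3G08030 and AT3G08490, had log2 fold changes of -0.09 and 0.21 (adjusted p = 0.575 and 0.471).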

How the data were processed

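Libraries were made with a stranded mRNA kit and read as 75-nt single ends, per the labels' protocols. Tools named are Trimmomatic, STAR 2.7.2a, Subread 1.6.5 and featureCounts, with TAIR10 as the build, per the submitters' processing notes. Col-0 values are raw counts as the authors deposited them. The bamboo and Col-0-b values are the authors' normalized signal, reads over a size factor of 0.811 to 1.18 (the sources used here do not say how it was set). In these 5 columns 100% of values were whole multiples of the value of 1 read within 0.01, so reads were recovered. The WT columns were read as Col-0-b, the wild type listed with bamboo; 6 columns whose names fit no sample were not used.

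Log2(normalized count + 1) was tested with limma 3.58.1 (R 4.3.3; trended, robust, group only) over 20274 features with at least 10 in at least 2 libraries, with Benjamini-Hochberg adjustment at 0.05 over all of them. This scale understates changes of low genes. edgeR 4.0.16 and DESeq2 1.42.0 on the recovered reads were alternatives, and the fits were tested on simulated data. A value of 3 reads is 2.54 to 3.7 normalized counts. Levels are mean ± SD.

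The members and gene lists were chosen with earlier results of these data known. Named genes were the members, up to 4 of the largest changes in each list, the 3 nearest patterns and chromosomal neighbours; further genes were named after their values were seen. Names come from a RefSeq gene table of TAIR10.1 (37051 of 37336 features), whose coordinates are not printed because the build differs. Promoter and protein sequences were not analysed here.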

Additional observations from a re-analysis of the deposited data

How the results depend on the processing

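The 14 higher and 13 lower genes in bamboo became 46 and 29 with no low-value filter, 188 and 115 with DESeq2, and 513 and 379 with a replicate block; leaving out 1 library gave 6 to 894 and 4 to 1052, the highest without bamboo replicate 3. The cause was not tested. Other iron genes called, 0 and 0, were 1 and 3 with DESeq2 (NAI1 as higher, and VTL1, OPT3 and FRO5 as lower). They were 2 and 2 with a replicate block (NAI1 and FER1 as higher, VTL1 and OPT3 as lower). When 1 Col-0-b library was left out they were 0 and 0. TMM-rescaled values, edgeR and a pseudocount of 8 gave 0 and 0. FRD3 ran from -0.50 to -0.42, and 5 of the 10 members changed sign in at least 1; IRT1 ran from -0.38 to 0.16, and FRO2 from -0.23 to 0.43, the higher values without Col-0-b replicate 2. F6'H1 ran from -0.04 to 0.44. Members at least 2-fold higher in Col-0-b than in Col-0 numbered 3 to 4 when 1 wild-type library was left out, and other iron genes 10 to 12 higher and 3 to 5 lower (5 without Col-0-b replicate 2), alternatives chosen after seeing the data. Only 2 replicate numbers are shared, and differences between them correlated at 0.08 across features, so the numbers were not taken as pairs. Few libraries and a wide wild-type spread limit what IRT1, FRO2 and bHLH100 can show; depth limits bHLH100, with 2 to 25 reads a library in Col-0.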

Other observations

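Several other iron genes, too, had unequal levels in the wild-type sets. Of the 52 tested, 11 were at least 2-fold higher in Col-0-b than in Col-0 without overlap, against 5.03% of features, and 3 were at least 2-fold lower, against 4.27% (5 without Col-0-b replicate 2). The copper importer COPT2 had 5.63, 7.78 and 11.5 CPM in Col-0 replicates 1 to 3, and 73.4, 83.5 and 66.9 in Col-0-b. FRO4 had 1.43, 0.754 and 4.91 CPM in Col-0, and 94.2, 74.4 and 87.4 in Col-0-b. Its paralogue FRO5 had 0, 2 and 0 reads in Col-0, and 71.8, 75.8 and 82.0 CPM in Col-0-b. These reductases are known from copper uptake, and the libraries of the sets lay far apart for all 3 genes.

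OPT3 had 8.69, 10.1 and 6.31 CPM in Col-0, and 109, 106 and 102 in Col-0-b. The nicotianamine synthase NAS4 had 1.91, 1.70 and 0.587 CPM in Col-0, and 9.59, 10.3 and 10.8 in Col-0-b. The others on the higher side were FRO3 (2.15-fold), YSL2 (3.44-fold), YSL3 (2.08-fold), VTL1 (2.07-fold), AT1G47400 (2.86-fold) and AT1G47395 (4.46-fold). Depth limits the ratios of AT1G47400, with 4, 4 and 11 reads in Col-0 replicates 1 to 3, and AT1G47395, with 9, 16 and 15. Without Col-0 replicate 3 the ratio was 5.95 for AT1G47400 and 1.53 for VTL1, under 2-fold. VTL1 was also under 2-fold without Col-0-b replicate 1, at 1.97, as was YSL3 without Col-0 replicate 1, at 1.90. Lower in Col-0-b were FER1, at 302, 262 and 187 CPM in Col-0 and 116, 99.4 and 131 in Col-0-b, AT1G28680 and AT2G22760. Without Col-0 replicate 1 the ratio of Col-0-b to Col-0 was 0.515 for FER1, short of 2-fold lower. No test was made across the tables, and growth, sequencing and set cannot be told apart.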
